A study of Homo sapiens with 12 samples.

Results

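Autophagy is the route by which a cell encloses part of its own contents in a double membrane and passes it to the lysosome for digestion. Described here are 10 genes of this route in HT29 cells treated with a water extract of Aconitum carmichaeli Debeaux (ACD). They were chosen by name for their roles, with earlier results of these data known. They are SQSTM1, NBR1, MAP1LC3B, GABARAPL1, ULK1, BECN1, WIPI1, ATG5, ATG12 and TFEB. All 10 were matched by symbol to 1 Ensembl gene ID each among the 60675 IDs of the count table, and all 10 were among the 15374 genes with enough counts to be tested.

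The study asked whether ACD, a herbal drug, acts more on brain or on intestinal cells. HT29 cells, an established line, were derived from an adenocarcinoma of the human colon. After 24 h of treatment their RNA was collected in 12 libraries, 3 per group, and the groups were vehicle, a low dose of 20 µg/mL ACD, a medium dose of 100 µg/mL and a high dose of 500 µg/mL. The vehicle is labelled 2% DMSO, and by the study's methods the extract was dissolved in phosphate-buffered saline with 2% DMSO and added to the growth medium, so all groups received the solvent. By those methods 2% was the strength of the solvent before its dilution in the medium, and not that in the culture. A note in the labels describes an extract of Poria cocos, whereas the titles and the treatment field, which set the groups here, name ACD. The labels do not say whether the 3 libraries of a group came from separate cultures, so the p-values measure the spread between these libraries, which may be technical. The model is 1 cell line, and in bulk RNA a change in the number of cells of a kind and a change in RNA per cell cannot be told apart.

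The steps of autophagy are set by small groups of proteins. ULK1 is the kinase that starts the process, and it is held back by the nutrient-sensing kinase complex mTORC1. BECN1 belongs to the lipid kinase complex that marks the forming membrane, and WIPI1 binds that mark. ATG5 joined to ATG12 helps to attach proteins of the ATG8 family, here MAP1LC3B and GABARAPL1, to the growing membrane. SQSTM1 (p62) and NBR1 bind ubiquitin-tagged cargo and the ATG8 proteins, and are themselves degraded with their cargo. TFEB is a transcription factor of lysosomal and autophagy genes. These are measurements of mRNA, so they say nothing of the amount of each protein or of the flow through the pathway.

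The libraries held 15941255 to 33866644 expected counts each. All 12 markers of colon epithelium were at a median of at least 1 CPM (counts per 1000000 counts of the scaled library), with a summed level of 11374 to 13601 CPM per library, while the 6 fibroblast markers summed to 1.54 to 2.90 CPM and the 4 endothelial markers to 1.39 to 2.60 CPM. Most of the epithelial sum came from the keratins KRT8 and KRT18, with medians of 6401 and 3401 CPM. CDX1, GPA33, CDH17 and CDX2 were the lowest of that list, with medians of 1.21, 4.82, 5.99 and 6.08 CPM. The 6 leukocyte markers summed to 1266 to 1892 CPM, nearly all of it from LYZ (lysozyme, which gut epithelium also makes), while PTPRC, the common leukocyte antigen, was at 0 to 0.123 CPM. High-dose replicate 2 stood apart from the other libraries. Over 10626 genes, its log2 differences from the other high-dose libraries had an SD of 0.502, against 0.102 to 0.293 for the remaining libraries. High-dose values of the 10 genes, and of the further genes that passed, are therefore given with and without it.

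At the high dose, 1 of the 10 genes passed the test, SQSTM1, and it was higher than in vehicle. A gene passed where the quasi-likelihood test of edgeR gave a Benjamini–Hochberg adjusted p under 0.05 over all 15374 genes. Of all genes tested, 5.77% passed at this dose and 2.82% passed as higher. The other 9 genes had log2 fold changes between −0.02 and 0.31. The median over the 10 genes was 0.06, beside 0.01 over all genes tested. With the further requirement of a fold change over 1.5, 0 of the 10 remained, beside 2.93% of all genes.

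**Figure D1:**
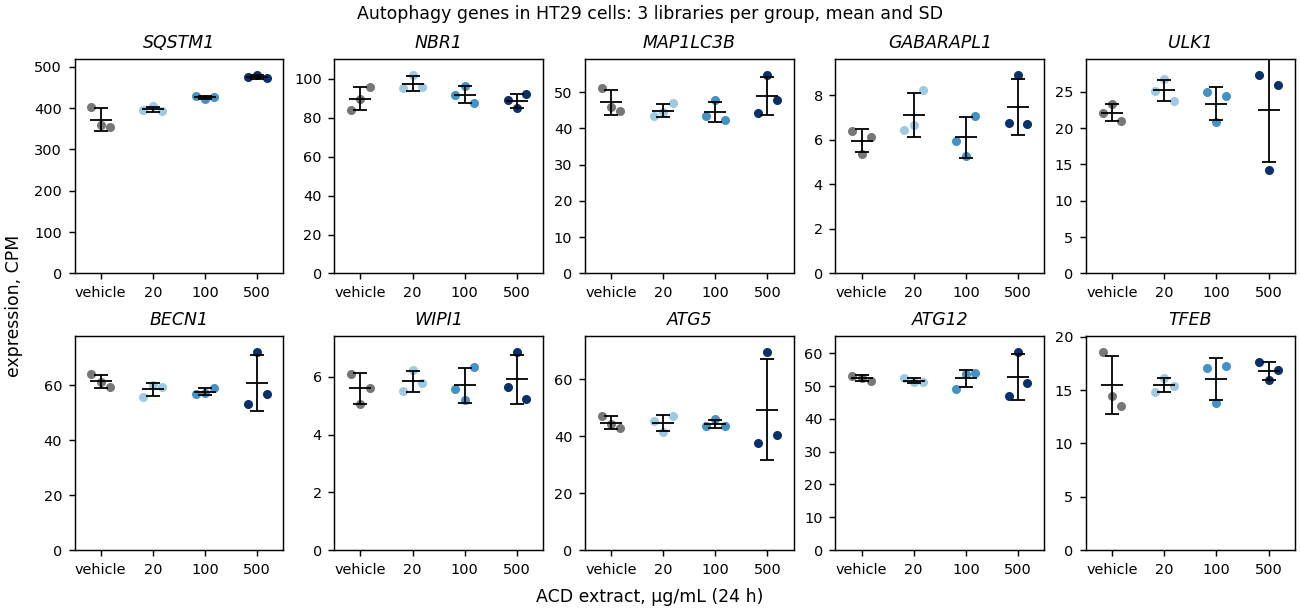
Expression of the 10 autophagy genes in CPM (vertical axes, each from 0) against the dose of ACD in µg/mL, with a point for each library and the mean and SD of 3 libraries per group in black. SQSTM1 lies between 354 and 403 CPM in vehicle and between 472 and 480 CPM at the high dose, and a single high-dose library sets the wide spread of ULK1 and ATG5.

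SQSTM1 (ENSG00000161011) lies on chromosome 5 from 179806398 to 179838078 on the plus strand of GRCh38. In vehicle its 3 libraries held 403, 359 and 354 CPM. At the low dose they held 395, 404 and 392 CPM, at the medium dose 429, 423 and 426 CPM, and at the high dose 474, 480 and 472 CPM. Every library of the medium and of the high dose lay above every vehicle library, whereas the low dose and vehicle overlapped. The group means were 372 ± 27.0, 397 ± 6.17, 426 ± 2.96 and 475 ± 4.27 CPM (SD, n = 3 each) from vehicle to the high dose. The spread was thus widest in vehicle, where replicate 1 was the highest.

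Against vehicle, SQSTM1 was 1.28-fold higher at the high dose (95% interval 1.15 to 1.42), with a log2 fold change of 0.35 ± 0.07 (SE) and an adjusted p of 0.0101 in edgeR's quasi-likelihood test. Without high-dose replicate 2 the log2 fold change was again 0.35, with an adjusted p of 6.51e-04. The call was lost without vehicle replicate 2 (adjusted p = 0.0580) and when edgeR was fitted to the vehicle and high-dose libraries alone (adjusted p = 0.201).

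The medium dose gave a fold of 1.15 (95% interval 1.03 to 1.27), a log2 fold change of 0.20 that did not pass in edgeR (adjusted p = 0.276). DESeq2 on all libraries gave it an adjusted p of 0.0117. It passed in edgeR without high-dose replicate 2 (adjusted p = 0.0364). For the low dose the log2 fold change was 0.09 (adjusted p = 0.790, edgeR).

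A linear trend over the order of the doses gave SQSTM1 a slope of 0.12 ± 0.02 log2 units per dose step (SE; 95% interval 0.07 to 0.16; adjusted p = 0.00451, edgeR). It was 1 of 10 in this test, beside 5.74% of all genes. No pair of neighbouring doses passed the test. High against medium dose gave SQSTM1 a log2 fold change of 0.16 (adjusted p = 0.487) and medium against low dose 0.10 (adjusted p = 1.00) in edgeR, although the libraries of neighbouring doses above vehicle did not overlap. In these 2 comparisons 0 of the 10 genes passed, beside 0.891% and 0.143% of all genes. At an unadjusted p under 0.05 edgeR had 1 and 0 genes and DESeq2 1 and 1, all of them SQSTM1, and DESeq2 also called 0 in both. Shares of all genes are given for edgeR at the adjusted p alone. Counts at an unadjusted p and counts of DESeq2 calls, here and below, thus have no share to be read against.

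Part of SQSTM1 overlaps genes on the other strand, MRNIP by 1582 exonic bases and MGAT4B by 105. The kit kept strand, but the strand setting of the quantification is not given in the sources used here, so reads of overlapping partners may be shared. MRNIP had 30.8 CPM in vehicle and 34.3 CPM at the high dose (log2 fold change 0.15, adjusted p = 0.332, edgeR), and MGAT4B had 334 and 317 CPM (−0.07, adjusted p = 0.648, edgeR). Neither passed the test. NBR1, MAP1LC3B, GABARAPL1, BECN1, WIPI1, ATG12 and TFEB also overlap genes on the other strand, by 60 to 829 exonic bases per partner gene. None of their partners with a test passed at the high dose. BECN1 has PSME3 and CNTD1 as partners, by 300 and 795 bases. PSME3 had 258 CPM in vehicle and 301 CPM at the high dose (0.22, adjusted p = 0.0762, edgeR). CNTD1 had 2.88 and 2.37 CPM (−0.27, adjusted p = 0.416, edgeR).

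Per kilobase of its main transcript, SQSTM1 was also the most abundant of the 10 mRNAs. With CPM divided by the length of the MANE Select transcript, its mean level in vehicle was 131 CPM per kb, followed by BECN1 with 29.1, MAP1LC3B with 22.0 and NBR1 with 19.5 CPM per kb. ATG5 (14.1) and ATG12 (13.0) were next, and TFEB (6.64), ULK1 (4.15), GABARAPL1 (3.17) and WIPI1 (2.93 CPM per kb) were the lowest.

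NBR1, the second cargo receptor, did not pass the test at any dose. Its libraries held 83.9, 89.9 and 95.8 CPM in vehicle and 88.9, 84.8 and 92.0 CPM at the high dose, and the groups overlapped. The log2 fold change was −0.02 (95% interval −0.17 to 0.13, adjusted p = 0.916, edgeR), and 0.01 without high-dose replicate 2 (adjusted p = 0.941). Its highest mean was that of the low dose, 97.5 ± 3.68 CPM (SD, n = 3), a log2 fold change of 0.12 from vehicle (adjusted p = 0.745, edgeR). Over the 12 libraries the Pearson correlation of log2 CPM between NBR1 and SQSTM1 was −0.379, the lowest among the other 9 genes, and the highest was that of TFEB, 0.562. These correlations are given as descriptions, since the libraries share dose groups.

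**Figure D2:**
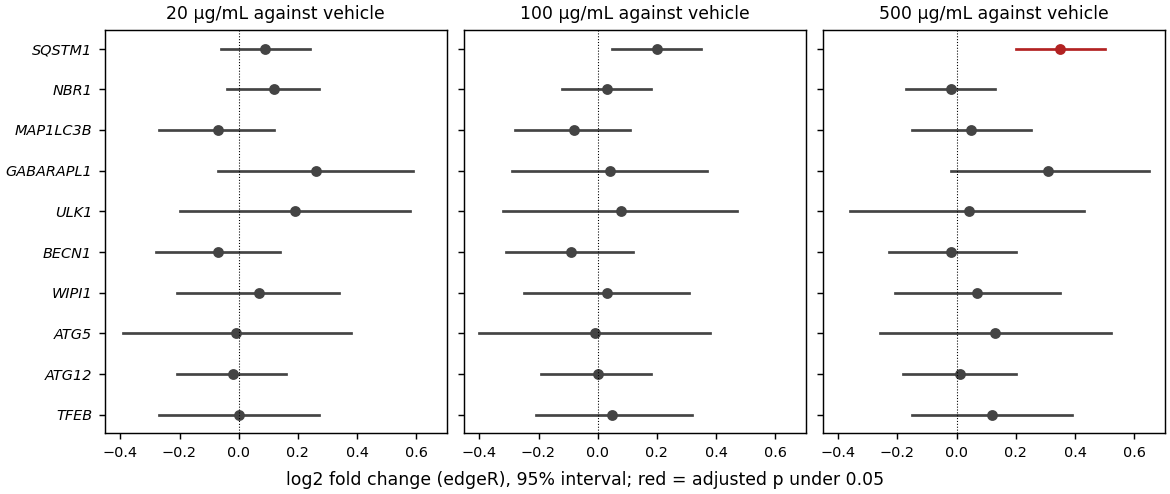
Log2 fold change against vehicle (horizontal axis) of the 10 autophagy genes at each dose, with the 95% interval of the edgeR fit as a line and genes that passed the test in red. The interval of SQSTM1 runs from 0.20 to 0.50 at the high dose, and those of the other 9 genes hold 0 at every dose.

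The ATG8 genes MAP1LC3B and GABARAPL1 encode the small proteins that are joined to lipid on the autophagosome membrane and that dock the cargo receptors. GABARAPL1 is on chromosome 12 from 10212458 to 10223128 (plus strand). Its vehicle libraries held 6.38, 5.39 and 6.11 CPM and its high-dose libraries 6.75, 8.92 and 6.73 CPM. All high-dose libraries were above all vehicle libraries, the nearest of them by little, and replicate 2 was far above the other high-dose libraries. The log2 fold change of 0.31 ± 0.15 (SE; 95% interval −0.02 to 0.65) did not pass (adjusted p = 0.280, edgeR), and it was 0.19 without high-dose replicate 2 (adjusted p = 0.352). SQSTM1 and GABARAPL1 were the 2 of 10 genes whose high-dose and vehicle libraries did not overlap, beside 22.0% of all genes tested.

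The means of GABARAPL1 did not follow the order of the doses. Its low-dose libraries held 6.46, 6.66 and 8.24 CPM, all above vehicle, and those at the medium dose 5.97, 5.29 and 7.08 CPM, which overlapped vehicle. In edgeR the log2 fold change from vehicle was 0.26 for the low dose (adjusted p = 0.735) and 0.04 for the medium dose (adjusted p = 0.949). The low-dose and high-dose means, 7.12 ± 0.974 and 7.47 ± 1.26 CPM (SD, n = 3 each), lay within the spread of each other.

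MAP1LC3B, on chromosome 16 from 87383953 to 87404779 (plus strand), held 51.1, 45.8 and 44.7 CPM in vehicle and 44.2, 54.7 and 47.9 CPM at the high dose. The groups overlapped, and high-dose replicate 2 was the highest of all. Its log2 fold change at the high dose was 0.05 (95% interval −0.15 to 0.25, adjusted p = 0.822, edgeR), and −0.03 without replicate 2 (adjusted p = 0.818). The lower doses gave −0.08 for 100 µg/mL (adjusted p = 0.776) and −0.07 for 20 µg/mL (adjusted p = 0.875) in edgeR. MAP1LC3B2, a near-identical copy that could share reads with it, was at 0 to 0.352 CPM.

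Because SQSTM1 was the gene that passed and the ATG8 genes carried the motif matches, the 250 bases before the annotated start of these 3 genes are shown from the promoter table of RefSeq on GRCh38.p14. In this table all 10 genes had an entry, and the starts of BECN1 and ATG5 lay 403 and 323 bases from those of their MANE Select transcripts. Bases are written 5′ to 3′ on the strand of the gene, in lower case, with motif matches in capitals. The SQSTM1 window is chr5:179820655-179820904 (plus strand), that of GABARAPL1 is chr12:10212627-10212876 (plus strand) and that of MAP1LC3B is chr16:87392086-87392335 (plus strand).
SQSTM1: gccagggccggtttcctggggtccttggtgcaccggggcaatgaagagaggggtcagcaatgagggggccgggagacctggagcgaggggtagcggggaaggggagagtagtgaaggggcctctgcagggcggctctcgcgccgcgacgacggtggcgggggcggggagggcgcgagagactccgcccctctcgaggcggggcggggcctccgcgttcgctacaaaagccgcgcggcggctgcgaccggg
GABARAPL1: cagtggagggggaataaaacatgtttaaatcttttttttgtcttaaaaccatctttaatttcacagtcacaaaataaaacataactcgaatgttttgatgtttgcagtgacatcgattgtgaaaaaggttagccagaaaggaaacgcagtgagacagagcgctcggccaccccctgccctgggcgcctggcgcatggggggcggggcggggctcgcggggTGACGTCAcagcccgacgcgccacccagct
MAP1LC3B: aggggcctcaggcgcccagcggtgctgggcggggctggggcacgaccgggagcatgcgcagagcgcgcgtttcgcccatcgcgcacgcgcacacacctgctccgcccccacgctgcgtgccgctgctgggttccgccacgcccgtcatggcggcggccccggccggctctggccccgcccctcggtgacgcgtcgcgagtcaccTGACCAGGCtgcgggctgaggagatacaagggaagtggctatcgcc
The windows of SQSTM1 and MAP1LC3B were rich in G and C, 73.6% and 74.8%, and that of GABARAPL1 had 51.6%, where the median over 35116 promoters was 58.0%.

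Motifs were searched on both strands of all 10 windows, and no match overlapped another. The letters CACGTG, the core of the element bound by TFEB, were in 0 of 10 windows and in 6.34% of all promoters. The antioxidant response element core TGACNNNGC was in 1 of 10, that of MAP1LC3B, beginning 46 bases before the start, and in 10.9% of all promoters. The cAMP response element TGACGTCA was in 1 of 10, that of GABARAPL1, beginning 30 bases before the start, and in 1.65% of all promoters. TGATGNAA, the core of the element bound by C/EBP and ATF factors, was in 0 of 10 and in 3.14% of all promoters. A match describes the letters in these windows and not the binding of a factor, and the SQSTM1 window held none of the 4 motifs.

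Of the genes that start autophagy, ULK1 (chromosome 12, 131894622 to 131923150, plus strand) showed the largest gap between libraries. It held 22.0, 23.3 and 21.0 CPM in vehicle, and 27.3, 14.2 and 25.9 CPM at the high dose. High-dose replicates 1 and 3 were above every vehicle library, and replicate 2 was below every vehicle library. The log2 fold change was 0.04 (95% interval −0.36 to 0.43, adjusted p = 0.943, edgeR), and 0.26 with an adjusted p of 0.0388 without high-dose replicate 2. All low-dose libraries, 25.1, 26.7 and 23.7 CPM, were above vehicle (log2 fold change 0.19, adjusted p = 0.837, edgeR).

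BECN1 (chromosome 17, 42810134 to 42833350, minus strand) held 64.0, 61.1 and 59.3 CPM in vehicle and 53.4, 72.3 and 56.7 CPM at the high dose. Here replicates 1 and 3 of the high dose were below vehicle and replicate 2 above it. The log2 fold change was −0.02 (95% interval −0.23 to 0.20, adjusted p = 0.948, edgeR), or −0.16 without replicate 2 (adjusted p = 0.0826). All medium-dose libraries, 56.7, 57.2 and 59.1 CPM, were below all vehicle libraries (−0.09, adjusted p = 0.775, edgeR).

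Among the genes of membrane growth the same library stood out. ATG5 (chromosome 6, 106045423 to 106325791, minus strand) held 47.3, 44.5 and 42.8 CPM in vehicle and 37.8, 69.8 and 40.4 CPM at the high dose. High-dose replicate 2 was the highest of the 12 libraries, and replicates 1 and 3 were the lowest. The log2 fold change was 0.13 (95% interval −0.26 to 0.52, adjusted p = 0.763, edgeR), and −0.19 without replicate 2 (adjusted p = 0.0629).

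ATG12 is the protein joined to ATG5. Its mRNA was at 53.2, 52.6 and 51.5 CPM in vehicle, 49.2 to 54.0 CPM over the low and medium doses and 47.0, 60.5 and 51.0 CPM at the high dose, where replicate 2 was again the highest of all. WIPI1 ranged from 5.06 to 6.11 CPM in vehicle and from 5.23 to 6.87 CPM at the high dose, and its groups overlapped. The log2 fold changes at the high dose were 0.01 for ATG12 (95% interval −0.18 to 0.20, adjusted p = 0.979) and 0.07 for WIPI1 (−0.21 to 0.35, adjusted p = 0.837) in edgeR. Without replicate 2 they were −0.09 (adjusted p = 0.313) and −0.03 (adjusted p = 0.880).

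TFEB varied most within vehicle, where its libraries held 18.6, 14.4 and 13.5 CPM. At the high dose they held 17.6, 15.9 and 16.9 CPM, inside the range of vehicle. Its log2 fold change was 0.12 (95% interval −0.15 to 0.39, adjusted p = 0.648, edgeR), and 0.17 without replicate 2 (adjusted p = 0.358). TFEB acts mainly through its movement into the nucleus, which mRNA counts do not measure.

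**Figure D3:**
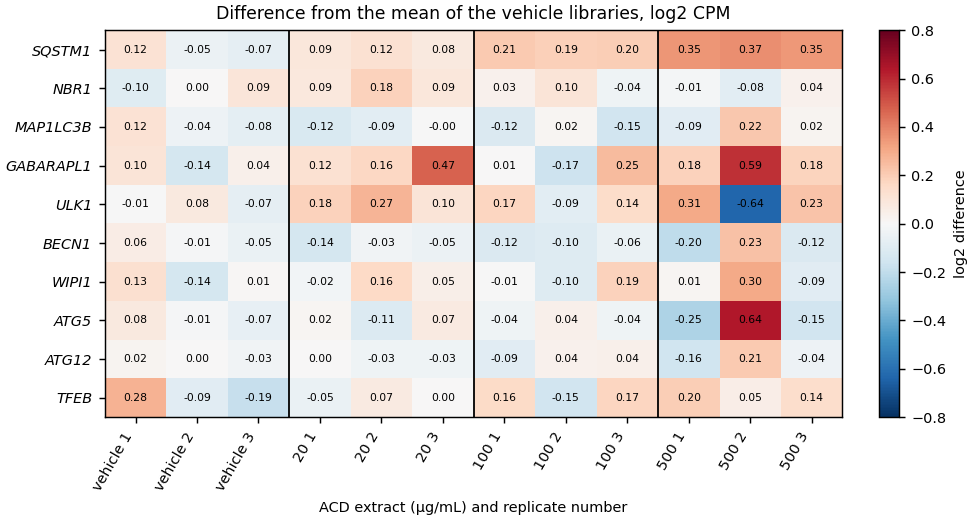
Log2 difference of each library (columns, by dose and replicate number) from the mean of the 3 vehicle libraries for the 10 autophagy genes (rows), with red above and blue below vehicle and the value in each cell. SQSTM1 is at 0.35, 0.37 and 0.35 in the high-dose libraries, whereas high-dose replicate 2 is at −0.64 for ULK1 and 0.64 for ATG5, opposite in sign to the other high-dose libraries.

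High-dose replicate 2 deviated from its group for many of these genes but not for SQSTM1. Its difference from the mean of the other high-dose libraries had a median size of 0.32 log2 units over the 10 genes, the largest being 0.91 for ULK1. For the other 11 libraries the median size was 0.04 to 0.21. Without it, 2 of the 10 genes passed at the high dose, SQSTM1 and ULK1, beside 18.7% of all genes in that fit. The labels give no reason to leave this library out.

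At the medium dose 0 of the 10 genes passed in edgeR, beside 1.01% of all genes, with 1 at an unadjusted p under 0.05, and DESeq2 called 1, in both cases SQSTM1. At the low dose 0 of 10 passed, beside 0.124% of all genes, with 0 at an unadjusted p under 0.05, and DESeq2 called 0. Both shares are those of edgeR at the adjusted p. The libraries did not overlap with vehicle for 2 of the 10 genes at the medium dose, SQSTM1 above and BECN1 below, beside 28.7% of all genes. They did not overlap for 2 of 10 at the low dose, GABARAPL1 and ULK1, both above, beside 21.0%. The 3 dose comparisons share the vehicle libraries.

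The rest of the pathway was examined through 139 further genes in 11 lists, of which 134 could be tested. At the high dose 7 of these 134 passed, 4 higher and 3 lower, beside the 5.77% of all genes given above. Their median log2 fold change was −0.00, with 66 of 134 above 0. The genes that passed were in 3 of the lists, namely mTORC1 and AMPK control, cargo receptors and the lysosome. Without high-dose replicate 2, 25 of the 134 passed, 11 higher and 14 lower, beside 18.7% of all genes.

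**Figure D4:**
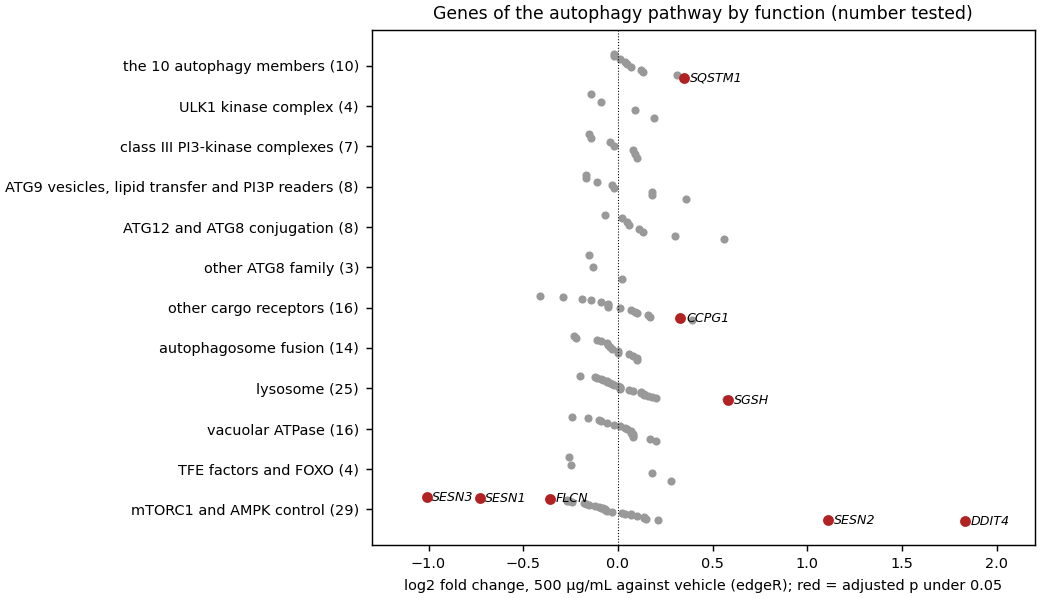
Log2 fold change of the high dose against vehicle (horizontal axis) for the 10 autophagy genes and the 134 further genes tested, 1 point per gene, in rows by function with the number tested in brackets. Genes that passed the test are in red and named, and most of these are in the row of mTORC1 and AMPK control, from −1.01 for SESN3 to 1.83 for DDIT4.

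The core apparatus lists were examined next. Of 4 further genes of the ULK1 kinase complex, 7 of the class III PI3-kinase complexes, 8 of ATG9 vesicles, lipid transfer and PI3P readers, 8 of ATG12 and ATG8 conjugation and 3 other ATG8 genes tested, 0 passed at the high dose, with 5 of these 30 at an unadjusted p under 0.05, and DESeq2 called 1, WDR45B, a reader of PI3P. Without high-dose replicate 2 edgeR called 2 of the 30, both lower and named after their values were seen, TMEM41B (−0.28, adjusted p = 0.00860) and the ATG8 gene GABARAP (−0.24, adjusted p = 0.0273), in a fit where 18.7% of all genes passed. Their median log2 fold changes lay between −0.13 for the other ATG8 genes and 0.08 for conjugation. Of 14 genes of autophagosome fusion and 16 of the vacuolar ATPase, the pump that acidifies the lysosome, 0 passed as well, with medians of −0.04 and 0.04. Of 4 genes of TFE and FOXO factors tested, 0 passed. Of these 34 genes edgeR had 3 and DESeq2 had 4 at an unadjusted p under 0.05, and DESeq2 called 0. Without high-dose replicate 2 edgeR called 1 fusion gene, VAMP8 (−0.36, adjusted p = 0.0176), and 2 of the factors, TFE3 (0.29, adjusted p = 0.00120) and FOXO1 (0.39, adjusted p = 0.00273), also named after their values were seen.

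Among 16 further cargo receptors 1 passed, beside 5.77% of all genes, namely CCPG1, a receptor for the autophagy of the endoplasmic reticulum. It held 34.5, 34.2 and 35.9 CPM in vehicle and 40.9, 49.6 and 41.0 CPM at the high dose, with no overlap, a log2 fold change of 0.33 ± 0.08 (SE; adjusted p = 0.0321, edgeR). Of 25 lysosomal genes 1 passed, beside the same 5.77%, namely SGSH, a lysosomal enzyme that takes part in the breakdown of heparan sulfate. It held 4.68, 4.55 and 4.17 CPM in vehicle and 6.98, 5.45 and 7.29 CPM at the high dose, also with no overlap, a log2 fold change of 0.58 ± 0.14 (SE; adjusted p = 0.0372, edgeR). Both calls were lost in most alternatives, since CCPG1 passed in 6 and SGSH in 7 of 18. Without high-dose replicate 2 they passed, with 0.23 (adjusted p = 0.0119) and 0.68 (adjusted p = 0.00175) in edgeR. In that fit 3 of the 16 cargo receptors and 5 of the 25 lysosomal genes passed, beside 18.7% of all genes. The others, named after their values were seen, were higher for CALCOCO2 (0.27) and NPC1 (0.23). They were lower for FUNDC1 (−0.33), CTSZ (−0.20), CD63 (−0.28) and NPC2 (−0.26).

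The list of mTORC1 and AMPK control had 29 genes tested, with a median log2 fold change of −0.07 at the high dose. Of these, 2 passed as higher and 3 as lower, beside 5.77% of all genes passing in either direction. DDIT4 (REDD1), an inhibitor of mTORC1 that responds to stress, held 20.5, 19.0 and 19.8 CPM in vehicle. At the low and medium doses it stayed between 18.8 and 20.1 CPM, and at the high dose it held 66.0, 76.2 and 68.5 CPM. The high-dose libraries thus stood alone. DDIT4 was 3.55-fold higher than in vehicle (95% interval 3.18 to 3.96, adjusted p = 3.43e-08, edgeR), and high against medium dose gave a log2 fold change of 1.85 (adjusted p = 5.98e-08, edgeR).

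The 3 sestrins, stress proteins that restrain mTORC1, did not move one way. SESN2 held 11.6, 11.9 and 13.4 CPM in vehicle and 28.8, 21.4 and 29.1 CPM at the high dose, a 2.16-fold rise (95% interval 1.78 to 2.61, adjusted p = 2.62e-04, edgeR). At the low and medium doses it lay between 11.9 and 14.5 CPM and overlapped vehicle. High against medium dose passed for SESN2 too, with a log2 fold change of 1.01 (adjusted p = 0.00232, edgeR). The means of SESN1 went down in the order of the doses. They were 33.7, 31.7, 24.1 and 20.4 CPM from vehicle to the high dose, where its log2 fold change was −0.73 ± 0.11 (SE; adjusted p = 0.00193, edgeR). Its low-dose libraries (29.7, 29.4 and 36.0 CPM) overlapped vehicle (34.7, 33.3 and 33.1 CPM). Those of the high dose (18.6, 23.9 and 18.7 CPM) overlapped the medium dose (23.6, 22.8 and 25.9 CPM). All medium-dose SESN1 libraries were below vehicle, a log2 fold change of −0.48 with an adjusted p of 0.0644 (edgeR), and DESeq2 called SESN1 at this dose.

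DDIT4, SESN1 and SESN2 passed at the high dose in all 18 alternatives. A pair of genes named after their values were seen also fell at the high dose. SESN3, a low mRNA, held 2.64, 2.45 and 3.52 CPM in vehicle and 1.31, 1.27 and 1.60 CPM at the high dose (log2 fold change −1.01 ± 0.24, SE; adjusted p = 0.0283, edgeR). FLCN (folliculin), which acts on the Rag GTPases that bring mTORC1 and TFEB to the lysosome, held 19.7, 21.2 and 19.8 CPM in vehicle and 17.6, 14.1 and 15.4 CPM at the high dose (−0.36 ± 0.08, SE; adjusted p = 0.0264, edgeR). SESN3 passed in 12 and FLCN in 10 of 18 alternatives. All 5 genes passed in edgeR without high-dose replicate 2, with log2 fold changes of 1.77 for DDIT4, 1.23 for SESN2, −0.85 for SESN1, −0.95 for SESN3 and −0.30 for FLCN. In that fit 12 of the 29 genes of this list passed, beside 18.7% of all genes. The others, named after their values were seen, were higher for TSC2 (0.34), MTOR (0.25) and RPTOR (0.26). They were lower for LAMTOR1 (−0.37), LAMTOR2 (−0.42), LAMTOR5 (−0.30) and PRKAB1 (−0.21).

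Of the 134 genes, 1 passed at the medium dose in edgeR, DEPTOR, a subunit that inhibits mTOR, beside 1.01% of all genes, and DESeq2 called 2, DEPTOR and SESN1. It held 5.01, 6.30 and 6.15 CPM in vehicle and 3.86, 3.56 and 3.69 CPM at the medium dose, below every vehicle library (log2 fold change −0.66 ± 0.14, SE; adjusted p = 0.0465, edgeR). At the high dose DEPTOR held 4.86, 5.24 and 4.61 CPM, which overlapped vehicle (−0.27, adjusted p = 0.319, edgeR), and its medium-dose call was kept in 8 of 18 alternatives. At the low dose 0 of 134 passed in edgeR, beside 0.124% of all genes, with 4 at an unadjusted p under 0.05, and DESeq2 called 0. The dose trend was passed by 6 of 134 genes, beside 5.74% of all genes, and high against medium dose by 2, beside 0.891%.

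**Figure D5:**
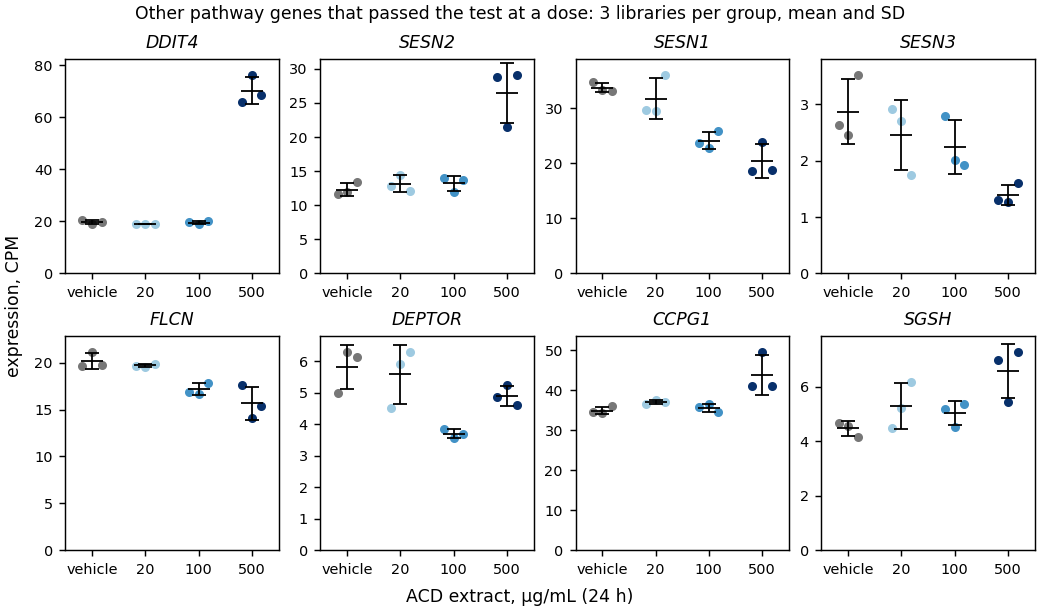
Expression in CPM (vertical axes, each from 0) against the dose of ACD in µg/mL for the 8 further pathway genes that passed the test against vehicle at a dose, with a point per library and the mean and SD of 3 libraries in black. DDIT4 and SESN2 are raised at the high dose alone, with means of 70.2 and 26.4 CPM, while SESN1 has means of 33.7, 31.7, 24.1 and 20.4 CPM from vehicle to the high dose.

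The genes whose pattern was most like that of SQSTM1 were PI3, IER3 and EPHX1. Likeness was the Pearson correlation of log2 CPM over the 12 libraries among 10625 other genes with a mean of at least 5 CPM. PI3, which encodes the protease inhibitor elafin, had a correlation of 0.967 and means of 3.79, 6.04, 9.94 and 16.5 CPM from vehicle to the high dose. IER3, an early response gene, had 0.960 and means of 65.0, 71.9, 94.2 and 105 CPM. EPHX1, the microsomal epoxide hydrolase of detoxification, had 0.953 and means of 92.4, 92.8, 109 and 127 CPM. The means of all 3 followed the order of the doses, as did those of SQSTM1, and the choice by likeness fixes that order, so these values are a description with no test.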

How the data were processed

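RNA of 12 HT29 libraries, 3 per group, was sequenced by the authors with a directional kit. Per the submitters' processing notes, reads were checked with FastQC 0.11.9, trimmed with Trim Galore 0.6.5, aligned with STAR 2.7.3a and quantified with RSEM 1.3.3. The study's methods name the same tools with a GRCh38 annotation but other versions of Trim Galore and STAR. The deposited table holds RSEM expected counts per Ensembl gene, not normalized. They were rounded and fitted over all 12 libraries with the quasi-likelihood test of edgeR 4.0.16 in R 4.3.3 (filterByExpr, TMM, robust; group as the only term), with Benjamini–Hochberg adjustment over 15374 genes. CPM used TMM-scaled library sizes. The common dispersion was 0.0126, a biological coefficient of variation of 11.2%. Standard errors were obtained from the F statistic. DESeq2 1.42.0, the tool of the study, was an alternative, as were another scaling, no filter, single-dose fits, a replicate block and leaving out each library. The fits were first run on simulated counts that gave all genes the common dispersion and held no deviating library. That run therefore does not cover a library such as high-dose replicate 2. No 2 libraries were identical.

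The members and gene lists were chosen with earlier results of these data known. The genes named are all 10 members, up to 3 genes with the smallest p of each further list among those passing at the high dose, those passing at a lower dose, and the 3 genes most correlated with SQSTM1. Others are said to be chosen after their values were seen. Gene positions and transcript lengths are from GENCODE 44, which held 93.2% of the IDs. Expected counts per library ran from 96.9 to 177 for WIPI1, the lowest of the 10 genes, and from 6780 to 15341 for SQSTM1, the highest. For the lowest genes counting error is therefore a sizeable part of the spread between libraries.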

Additional observations from a re-analysis of the deposited data

How the results depend on the processing

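For the 10 genes, 18 alternatives were run at each dose, and 19 for the counts of genes. SQSTM1 at the high dose kept its direction in all 18 (log2 fold change 0.33 to 0.42) and passed in 16, with adjusted p between 2.98e-09 and 0.201. The number of the 10 genes passing at the high dose, 1, became 0 with edgeR on vehicle and 1 dose, 0 with a fold change over 1.5, and 0 to 2 when 1 library was left out. At the medium dose, 0 became 1 with DESeq2 on all libraries and 1 with DESeq2 on vehicle and 1 dose, and was 0 to 1 when 1 library was left out. The counts at the low dose, between doses and in the trend did not move in the alternatives run.

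The 7 further pathway genes passing at the high dose became 3 with the replicate block, 3 with edgeR on vehicle and 1 dose, 4 with DESeq2 on vehicle and 1 dose, 4 with a fold change over 1.5, and 3 to 25 when 1 library was left out. The value 25 was that without high-dose replicate 2, the count was 3 without vehicle replicate 1 or 3, and 4 without vehicle replicate 2 or high-dose replicate 3. The causes of these moves were not tested. Same-numbered libraries did not deviate together (correlations −0.50 to 0.37, 5 of 18 pairs above 0.1), so the replicate numbers were not taken as pairs. With the replicate block SQSTM1 at the high dose had 0.35 (adjusted p = 0.0308).

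Genes near 0 changed sign when 1 library was left out. At the high dose the log2 fold changes then ranged from −0.07 to 0.04 for NBR1, −0.03 to 0.12 for MAP1LC3B, −0.11 to 0.26 for ULK1, −0.16 to 0.07 for BECN1, −0.03 to 0.16 for WIPI1, −0.19 to 0.28 for ATG5 and −0.09 to 0.08 for ATG12. At the medium dose they ranged from −0.02 to 0.09 for NBR1, −0.07 to 0.14 for GABARAPL1, −0.05 to 0.10 for WIPI1, −0.04 to 0.03 for ATG5, −0.02 to 0.04 for ATG12 and −0.03 to 0.20 for TFEB. At the low dose they ranged from −0.01 to 0.13 for WIPI1, −0.05 to 0.04 for ATG5 and −0.09 to 0.14 for TFEB. With no filter, ATG5 was 0.00 at the medium and 0.01 at the low dose. ATG12 at the medium dose was 0.00 with the size factors of DESeq2, 0.01 with no filter, 0.01 with DESeq2 on all libraries and 0.01 with DESeq2 on vehicle and 1 dose. With 3 libraries per group, the intervals at the high dose of the genes that did not pass still allow changes of the size seen for SQSTM1 in ULK1, GABARAPL1, ATG5 and TFEB.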

Other observations

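Of the 134 further pathway genes tested, 25 had no overlap between high-dose and vehicle libraries, beside 22.0% of all genes tested. Some of these, outside the named ones and chosen after their values were seen, did not pass at the high dose in edgeR. CALCOCO2 (NDP52), a cargo receptor for the autophagy of bacteria and mitochondria, held 25.9, 24.5 and 28.0 CPM in vehicle and 30.1, 40.6 and 32.6 CPM at the high dose (log2 fold change 0.39, adjusted p = 0.0550, edgeR), and it passed with DESeq2 on all libraries. ATG4C, a protease that processes ATG8 proteins, held 4.13, 4.85 and 5.05 CPM in vehicle and 6.12, 9.63 and 5.57 CPM at the high dose (0.56, adjusted p = 0.0993, edgeR). In both genes high-dose replicate 2 was the highest library. Without it CALCOCO2 passed in edgeR (0.27, adjusted p = 0.0253) and ATG4C did not (0.30, adjusted p = 0.0984). VMP1, a membrane protein needed for autophagosome formation, held 155, 150 and 160 CPM in vehicle. At the high dose it held 170, 257 and 170 CPM (0.36, adjusted p = 0.158, edgeR), and there too replicate 2 was the highest. Without that library VMP1 had a log2 fold change of 0.14 (adjusted p = 0.148, edgeR). PRKAB1, a regulatory subunit of the energy sensor AMPK, held 29.8, 30.3 and 31.0 CPM in vehicle and 27.0, 24.6 and 25.5 CPM at the high dose (−0.24, adjusted p = 0.0520, edgeR). It passed with DESeq2 on all libraries, and in edgeR it passed the dose trend with a slope of −0.08 log2 units per dose step (adjusted p = 0.0290). Without high-dose replicate 2 it passed at the high dose in edgeR (−0.21, adjusted p = 0.0310).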
